A study of Homo sapiens with 18 samples.

Results

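The comparison described here sets SKMEL2 cells given doxycycline for 18 h against untreated SKMEL2 cells, with 3 RNA sequencing libraries in each group, 6 of the 18 libraries of the series. The members were chosen by their labels alone, and all 16120 genes that passed a filter on low counts, of 58051 in the deposited table, were compared. SKMEL2 is an established human melanoma line with an activating NRAS variant. All of its libraries, the untreated ones included, came from cells carrying the lentiviral tet-ON construct pTRIPZ-PPP2R3B, which makes Myc-tagged PPP2R3B when doxycycline is added, and which was kept in the cells by puromycin selection. Nothing in the sources used here says whether this line was a clone or whether the 3 libraries of a group came from separate cultures, so that p-values measure only the spread between these libraries. The 18 libraries include none of cells given doxycycline without the construct, so an effect of the drug and one of PPP2R3B cannot be told apart. The time follows the labels, which say 18 h, whereas the text of the study gives a shorter time for what appears to be the same group. SKMEL2 cells induced for 6 h (3 libraries), and untreated and 18 h SKMEL30 cells (3 libraries each), a second NRAS-mutant melanoma line with the same construct, serve below for comparison.

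PPP2R3B encodes PR70, a regulatory B'' subunit of protein phosphatase 2A (PP2A). PP2A is a serine/threonine phosphatase built from a scaffold, a catalytic and a variable regulatory subunit, and the regulatory subunit directs the enzyme to its substrates. PR70 is known to bring PP2A to CDC6, a factor that licenses origins of DNA replication. Melanoma cells can move between a proliferative, pigmented state driven by the transcription factor MITF and a more invasive state, in which targets of YAP and TEAD are characteristic.

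Total expected counts ranged from 16405690 to 22383470 in the untreated libraries and from 16951805 to 21665037 at 18 h. Libraries of different groups were about as far apart as libraries of the same group: the leading log2 distance (the root mean square of the largest log2 differences between a pair of libraries) was 1.67 to 1.78 within the untreated group, 1.59 to 1.82 within the 18 h group and 1.53 to 1.9 between them. Untreated replicate 3 stood apart in its share of mitochondrially encoded RNA, which was 9.50% of counts against 6.42% to 6.89% in the other 5 libraries, and the lists it moved most are given below with and without it. All 10 markers of the melanocyte lineage were measured, with a summed level of 4392 to 4876 CPM (counts scaled to a common library size) in untreated cells and of 5004 to 5270 CPM at 18 h. Summed levels, here and below, were scaled by library totals alone, whereas the CPM of single genes also used the TMM factors given with the processing. Summed markers of other cell types overlapped between the groups for keratinocytes (52.7 to 68.4 CPM untreated, 48.4 to 68.4 CPM at 18 h), endothelium (10.8 to 13.8 and 11.7 to 14.9 CPM) and leukocytes (64.9 to 74.2 and 70.5 to 76.0 CPM). For fibroblasts they were 16.4 to 17.8 CPM in untreated cells and 14.4 to 16.2 CPM at 18 h, without overlap. The part of these markers in the differences below was not tested. The defining markers DPT of fibroblasts, KRT1 of keratinocytes and CDH5 of endothelium had a count of 0 in all 6 libraries. In bulk RNA, fewer cells of a type and less RNA per cell cannot be told apart.

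Of the 16120 genes, 2 passed an adjusted p of 0.05 in edgeR's quasi-likelihood test (0.0124%), and both rose: the induced gene PPP2R3B and C21orf91. None fell. An unadjusted p under 0.05 was found for 750 genes (4.65%), 346 of them higher (2.15%) and 404 lower (2.51%) at 18 h, and the 3 libraries of each group did not overlap for 2380 genes (14.8%). DESeq2, the tool of the study, was run on all genes with a count in the SKMEL2 libraries. It gave an adjusted p only to 2278 of them, which had passed its own filter on the mean count. It called 16 of these (0.702%), 9 higher and 7 lower, PPP2R3B and C21orf91 among them. This share is over fewer and better counted genes than that of edgeR. In the following, a gene is said to have risen or fallen only if one of the tools called it, and the tool is named. Unless another fit is named, called refers to these fits of the 9 SKMEL2 libraries.

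PPP2R3B (ENSG00000167393, chrX:333933-386907 on GRCh38.p14) was measured at 25.5, 21.2 and 17.8 CPM in the untreated libraries 1 to 3 and at 442, 533 and 499 CPM in the 18 h libraries. The groups lay far apart, and the untreated cells already held 390 to 418 counts of the gene against 8780 to 9685 at 18 h. Its mean was 21.5 ± 3.85 CPM (SD, n = 3) in untreated and 491.5 ± 46.1 CPM (SD, n = 3) in induced cells, which is a 23.0-fold rise with a 95% interval of 4.16 to 4.89 on the log2 scale (edgeR adjusted p = 6.39e-08). Transcripts of the construct and of the cell's own gene share 1 count and cannot be told apart.

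C21orf91 (ENSG00000154642, chr21:17788974-17819356) stood at 123, 98.2 and 95.3 CPM in the untreated libraries and at 257, 259 and 260 CPM at 18 h. The 3 induced libraries were almost equal, while untreated replicate 1 was higher than the other 2 untreated libraries. The rise was 2.45-fold, with a 95% interval of 1.08 to 1.51 on the log2 scale (edgeR adjusted p = 0.00017). Neighbouring genes on both chromosomes showed no such difference: of 10 tested, 0 were called, and their log2 fold changes ran from -0.28 (NCAM2, a neuronal adhesion molecule, at 1.71 CPM in untreated cells) to 0.20 (CXADR, a junction protein and virus receptor).

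**Figure D1:**
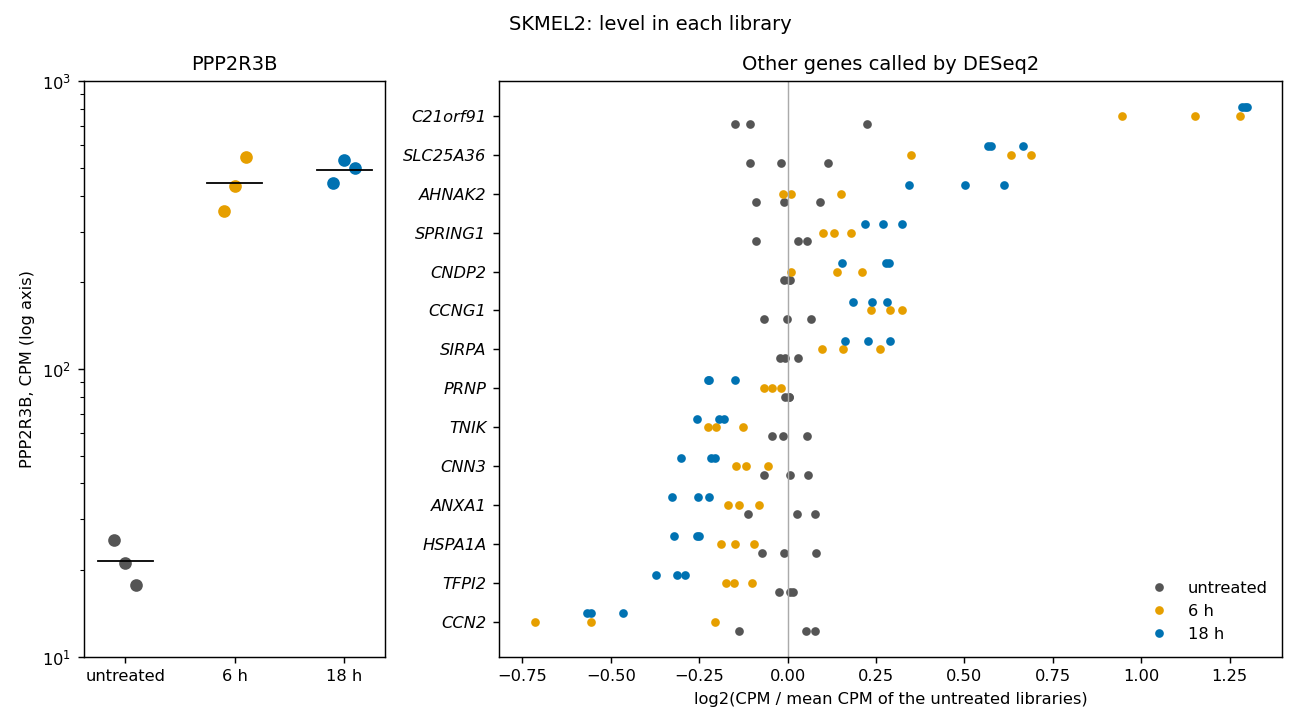
Left, level of PPP2R3B in CPM (log axis) in the 3 untreated, 3 6 h and 3 18 h SKMEL2 libraries, with group means as lines. Right, log2 ratio of each library's CPM to the untreated mean for 14 other genes called by DESeq2 at 18 h; the 18 h points of C21orf91 lie together near 1.29, those of AHNAK2 lie apart from both the untreated and the 6 h points, and those of CCN2 lie on the left.

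For the genes called by DESeq2, RefSeq (GRCh38.p14) holds a window of 250 bases before the gene's start for 13 of the 16. These windows were searched on both strands for the E-box CACGTG and its variant CATGTG, which MITF-type factors can bind, for GGAATG, the core recognized by TEAD factors, and for GAANNTTC, a heat shock element core. Each was found in 1 of the 13 windows: CACGTG in SLC25A36, CATGTG in SPRING1, GGAATG in CCN2 and GAANNTTC in HSPA1A. Among all 35116 RefSeq windows of this length the shares were 6.34%, 9.42%, 11.9% and 5.78%. Shown are the windows of the called gene with the largest change apart from PPP2R3B (C21orf91, chr21:17819357-17819606, minus strand), of SLC25A36 (chr3:140941586-140941835, plus strand) and of CCN2 (chr6:131951373-131951622, minus strand), 5′ to 3′ with a match in capitals. C21orf91 holds none of these letters, SLC25A36 a single CACGTG, and CCN2 GGAATG at 3 places.

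C21orf91: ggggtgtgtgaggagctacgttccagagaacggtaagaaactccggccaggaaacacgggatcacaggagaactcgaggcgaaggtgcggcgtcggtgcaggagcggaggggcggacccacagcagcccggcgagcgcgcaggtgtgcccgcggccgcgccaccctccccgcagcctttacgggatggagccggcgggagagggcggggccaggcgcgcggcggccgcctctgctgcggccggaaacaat

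SLC25A36: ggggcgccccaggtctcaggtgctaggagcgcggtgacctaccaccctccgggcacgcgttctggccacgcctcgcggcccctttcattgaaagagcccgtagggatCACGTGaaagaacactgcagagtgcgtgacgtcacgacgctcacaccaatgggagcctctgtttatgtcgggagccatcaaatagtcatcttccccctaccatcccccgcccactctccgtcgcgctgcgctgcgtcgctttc

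CCN2: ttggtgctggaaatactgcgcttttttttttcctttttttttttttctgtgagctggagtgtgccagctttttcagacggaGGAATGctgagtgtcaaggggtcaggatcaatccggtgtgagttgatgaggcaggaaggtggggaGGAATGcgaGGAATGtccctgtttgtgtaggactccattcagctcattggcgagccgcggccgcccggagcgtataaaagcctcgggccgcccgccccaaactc

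Of the genes that rose besides these, SLC25A36, a mitochondrial carrier of pyrimidine nucleotides, was at 191, 174 and 164 CPM in untreated cells and at 263, 280 and 262 CPM at 18 h. Its log2 fold change was 0.60 ± 0.09 (standard error), and it passed in DESeq2 (adjusted p = 2.24e-08) but not in edgeR (adjusted p = 0.0555).

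AHNAK2, a very large scaffold protein, was at 107, 99.4 and 94.1 CPM in untreated and 153, 142 and 127 CPM in 18 h cells. No 18 h library overlapped the untreated ones, and the log2 fold change was 0.49 ± 0.08 (DESeq2 adjusted p = 3.03e-06, edgeR adjusted p = 0.106). SPRING1, which takes part in the activation of the SREBP factors of cholesterol synthesis, rose from 261, 265 and 240 CPM to 297, 308 and 319 CPM (log2 fold change 0.27, DESeq2 adjusted p = 0.00152). Further genes that DESeq2 called higher were CCNG1, a cyclin and p53 target (0.24), SIRPA, the receptor for CD47 (0.23), and CNDP2, a cytosolic dipeptidase (0.24). In these 3 genes every 18 h library was above every untreated one, as was the case for 1188 of all genes (7.37%). edgeR called none of the 3. Each was called in only 2 of 18 alternative fits, both by DESeq2, with the 9 and with the 6 libraries.

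DESeq2 called 7 genes lower. TFPI2, a secreted protease inhibitor that binds the extracellular matrix, fell from 153, 158 and 157 CPM to 120, 126 and 128 CPM (log2 fold change -0.32 ± 0.05 standard error, DESeq2 adjusted p = 2.40e-06, edgeR adjusted p = 0.106). Its spread was small, at 2.22 CPM (SD, n = 3) among untreated and 3.75 CPM (SD, n = 3) among 18 h libraries. CCN2, a matricellular protein and a classic YAP and TEAD target, fell from 131, 150 and 153 CPM to 98.4, 97.5 and 105 CPM (-0.53 ± 0.11, DESeq2 adjusted p = 0.00119, edgeR adjusted p = 0.577).

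HSPA1A, an inducible HSP70 chaperone, went from 161, 168 and 179 CPM to 136, 142 and 142 CPM (log2 fold change -0.28, DESeq2 adjusted p = 0.00228). Its near-identical copy HSPA1B had a log2 fold change of -0.22, and reads could be divided between them. The other genes DESeq2 called lower were CNN3, an actin-binding calponin (-0.24), ANXA1, annexin A1 (-0.27), PRNP, the prion protein (-0.20), and TNIK, a kinase of the Wnt pathway (-0.21). edgeR called none of them. Of 18 alternative fits, CNN3 was called in 2, and ANXA1, PRNP and TNIK in 1, DESeq2 with the 9 libraries.

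**Figure D2:**
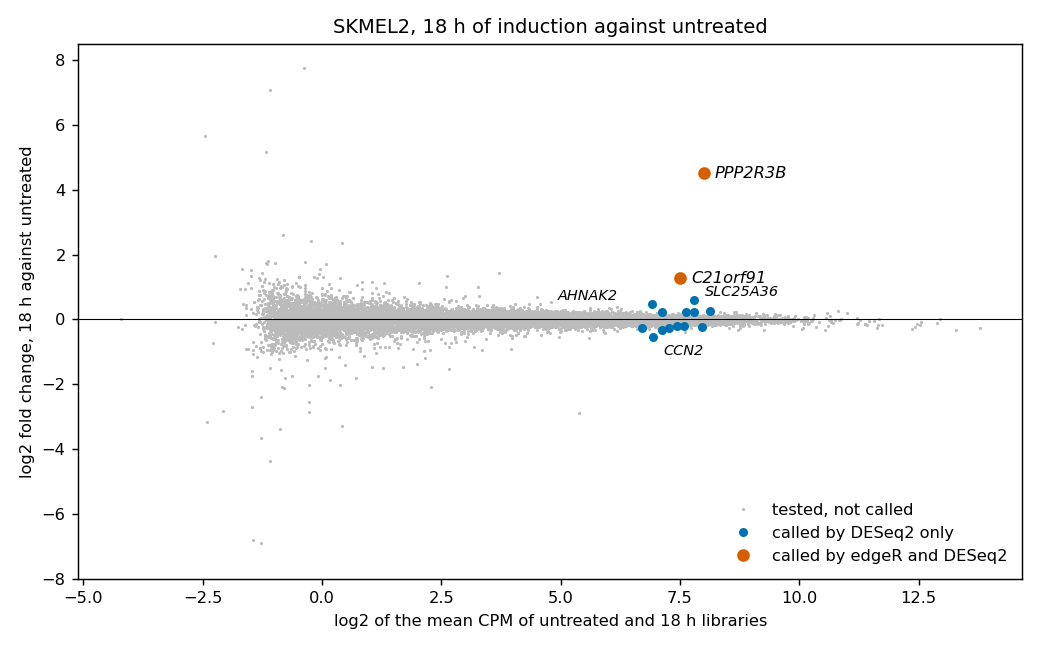
Each point is a gene tested (1 of the 16120 is not shown), with the log2 of its mean CPM over the 6 libraries on the horizontal axis and its log2 fold change at 18 h on the vertical axis. PPP2R3B (4.52) and C21orf91 (1.29) stand clear of the cloud among well-counted genes, and the scatter widens at low CPM.

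Several genes with a small edgeR p had no adjusted p from DESeq2. TGM5, a transglutaminase of the epidermis, was at 0.426, 0.567 and 0.319 CPM in untreated and 1.87, 2.55 and 2.33 CPM in 18 h cells (log2 fold change 2.35 ± 0.33, edgeR adjusted p = 0.0555), on 7 to 11 and 41 to 44 counts. NHLH1, a neuronal helix-loop-helix factor, stood at 0.183, 0.155 and 0.137 CPM against 1.14, 0.811 and 0.966 CPM (edgeR adjusted p = 0.152). YPEL4, a member of the Yippee-like family, had 5.24, 5.41 and 4.83 CPM against 7.71, 8.05 and 7.62 CPM (log2 fold change 0.60, edgeR adjusted p = 0.404). In each of these 3 genes every 18 h library was above every untreated one. The edgeR fit of the 9 libraries used above called none of them. With all 18 libraries in the fit edgeR called TGM5 and NHLH1, and with the 6 libraries compared TGM5. Over all alternative fits that held the gene, TGM5 was called in 8 of 17, NHLH1 in 2 of 17 and YPEL4 in 1 of 18.

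Further genes among the 12 with the smallest p in the upward direction were ORAI3, a calcium channel subunit (0.45), NDRG1, a stress and hypoxia gene (0.31), the antisense transcript RUNX2-AS1 (1.72) and ATP6V0D2, a subunit of the proton pump V-ATPase (0.55). ATP6V0D2 was at 21.3, 22.9 and 23.1 CPM in untreated and 31.6, 32.3 and 35.0 CPM in 18 h cells. Among the 12 in the downward direction were FLT1, a receptor for VEGF (-0.51), LIF, a cytokine of the interleukin 6 family (-0.40), FAM72A (-0.43), whose near-identical family copies make its count uncertain, MEF2C, a transcription factor (-0.37), CDH19, a cadherin of the neural crest lineage (-0.34), NET1, a guanine nucleotide exchange factor (-0.32), and CDCA7L, a partner of MYC (-0.27). FLT1 had 21.9, 20.0 and 24.0 CPM in untreated and 15.2, 14.7 and 16.3 CPM in 18 h cells. For these the lowest adjusted p was 0.577 in the edgeR fit of the 9 SKMEL2 libraries used above. With only the 6 libraries compared, DESeq2 called ATP6V0D2, FLT1, MEF2C and CDH19, and edgeR called ATP6V0D2.

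The point far below the others at a middle level in the plot of level against change is TUBA1B-AS1, chosen here after its values were seen. It had 12.7, 42.4 and 165.5 CPM in the untreated libraries and 13.9, 0.985 and 14.8 CPM at 18 h, so the groups overlapped (log2 fold change -2.88 ± 1.32, edgeR adjusted p = 0.987). It lies antisense to the tubulin gene TUBA1B, and whether the counting used strand is not given in the sources used here.

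How small a change could be seen depended on the level of a gene. Across genes the median standard error was 0.11 on the log2 scale, and the 95% interval lay within 0.5 of 0 for 67.4% of genes. This share was 98.5% of the 2372 genes above 100 CPM, 95.7% of the 7477 genes from 10 to 100 CPM, 30.5% of those from 1 to 10 CPM, and 0% below 1 CPM. Above 10 CPM, the whole interval lay beyond 0.5 for 2 genes only, PPP2R3B and C21orf91. Of the genes the study is concerned with, MITF had 438, 411 and 424 CPM in untreated and 420, 431 and 431 CPM in 18 h cells, so that the libraries overlapped. CDC6 overlapped as well, at 111, 120 and 121 CPM against 108, 107 and 113 CPM (log2 fold change -0.10 ± 0.06). NRAS, the mutated oncogene of this line, was at 322, 314 and 301 CPM against 327, 342 and 346 CPM (0.12 ± 0.05, edgeR adjusted p = 0.987), and BRAF, CDKN2A and MC1R were not called either (-0.08, -0.14 and 0.17).

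Of the gene lists, PP2A itself came first. Among 26 tested subunits and regulators, PPP2R3B apart, 11 were higher and 15 lower, with a median log2 fold change of -0.01 against 0.00 for all genes, of which 50% were higher. Their changes ran from -0.19 in PPME1, the methylesterase of the catalytic subunit, to 0.25 in PPP2R2B, a B subunit. CIP2A, an inhibitor of PP2A, had 87.4, 90.0 and 91.3 CPM in untreated and 79.6, 80.1 and 79.2 CPM in 18 h cells (-0.17, edgeR adjusted p = 0.987). No member was called.

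Genes of the lysosome and of autophagy were mostly higher at 18 h, though none was called. Of 27 tested, 24 had a log2 fold change above 0, the median was 0.10, and in 15 all 18 h libraries exceeded all untreated ones, against 7.37% of all genes. The summed level was 7164 to 7971 CPM in untreated and 8370 to 8536 CPM in 18 h libraries. PSAP, the precursor of the saposins that help digest sphingolipids, had 1492, 1496 and 1271 CPM in untreated cells and 1691, 1592 and 1631 CPM at 18 h (0.21 ± 0.09, edgeR adjusted p = 0.987). NEU1, a sialidase (0.24), CLCN7, a lysosomal chloride transporter (0.21), and ASAH1, acid ceramidase (0.14), also did not overlap. Untreated replicate 3 was the lowest library of the list. Without it 23 of 27 were still higher and the median was 0.08.

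Pigment and melanosome genes showed a like pattern, with 21 of 24 higher, a median of 0.10 and 10 higher without overlap (7.37% of all genes). PMEL, which forms the fibrils of the melanosome, was at 1812, 1704 and 1353 CPM in untreated and 2065, 1921 and 1871 CPM in 18 h cells (0.27 ± 0.12, edgeR adjusted p = 0.987). RAB27A, which carries melanosomes to the cell edge, was at 85.4, 83.1 and 77.2 CPM against 102, 96.6 and 99.1 CPM (0.28). Without untreated replicate 3, 17 of 24 were higher and the median was 0.05.

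The proliferative and the invasive melanoma state lay on opposite sides. Of 51 proliferative genes, 40 were higher (median 0.09, 18 higher without overlap, against 7.37% of all genes), among them ACP5, an acid phosphatase (0.24), and of 38 invasive genes, 33 were lower (median -0.13, 7 lower without overlap, against 7.39% of all genes). The median of the proliferative list was 0.05 without 18 h replicate 1 (38 of 51 higher), and that of the invasive list -0.08 without 18 h replicate 3 (31 of 38 lower). The proliferative list shares genes with the pigment list. In the invasive list MYOF, a membrane repair protein, had 45.1, 63.5 and 65.1 CPM in untreated and 33.3, 40.1 and 43.7 CPM in 18 h cells (-0.57 ± 0.17, edgeR adjusted p = 0.944). THBS1, thrombospondin, had 184, 234 and 243 CPM against 149, 174 and 185 CPM (-0.38), where the groups just overlapped.

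YAP and TEAD targets were lower in 21 of 25 genes, with a median of -0.13, and 9 had an unadjusted p under 0.05 in the downward direction (2.51% of all genes). Besides CCN2 these included DLC1, a tumour suppressor, at 83.3, 88.5 and 85.3 CPM against 71.4, 73.9 and 73.9 CPM (-0.23, edgeR adjusted p = 0.824), and NT5E, the ectonucleotidase CD73 (-0.22). Summed over the list the level was 2109 to 2184 CPM in untreated and 1954 to 1973 CPM in 18 h libraries, with no overlap. The summed levels of several other lists, among them ATF4 genes and p53 targets, did not overlap either. Without untreated replicate 3 the same number, 21 of 25, were lower (median -0.11). The actin genes driven by SRF were lower in 16 of 17 (median -0.09, and -0.05 without untreated replicate 3), collagens and matrix genes in 21 of 29 (median -0.12), and integrins, laminins and cadherins in 19 of 28 (median -0.05, and -0.09 without untreated replicate 2 or -0.08 without 18 h replicate 1). The 5 tested fibroblast markers were all lower as well (median -0.27), on a summed level of at most 17.8 CPM.

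Cytosolic chaperones were lower in 23 of 24 genes (median -0.10), with 13 lower without overlap (7.39% of all genes). Without untreated replicate 3, 19 of 24 were lower (median -0.10). Their summed level was 15830 to 16220 CPM in untreated and 14620 to 15180 CPM in 18 h libraries. HSP90AA1, the inducible HSP90, was at 3364, 3416 and 3410 CPM against 2952, 3105 and 3084 CPM (-0.16, edgeR adjusted p = 0.987). CRYAB, a small heat shock protein, was at 14.6, 15.3 and 18.4 CPM against 10.3, 13.0 and 13.5 CPM (-0.40). Genes of endoplasmic reticulum folding were split, with 12 higher and 15 lower (median -0.01).

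Genes of the cell cycle lay slightly below the untreated level. For DNA replication and G1/S, 27 of 28 were lower (median -0.07), with MCM3, a subunit of the replicative helicase, at 264, 277 and 262 CPM against 242, 242 and 249 CPM (-0.13). For mitosis and G2/M, 24 of 28 were lower (median -0.13). Lower without overlap were 5 of the 28 DNA replication genes and 1 of the 28 mitosis genes, against 7.39% of all genes. The 1 mitosis gene was KIF23, a kinesin of cytokinesis (-0.16). In untreated and 18 h cells alike, replicate 1 was the lowest library for mitosis genes, as the plot of the lists by library shows. No gene of either list was called. Single libraries moved both medians by over 1.5 times. For DNA replication the median was -0.12 without untreated replicate 1, -0.05 without untreated replicate 2, -0.04 without 18 h replicate 1 and -0.11 without 18 h replicate 3. For mitosis it was -0.20 without untreated replicate 1, -0.08 without untreated replicate 3 and -0.07 without 18 h replicate 1.

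**Figure D3:**
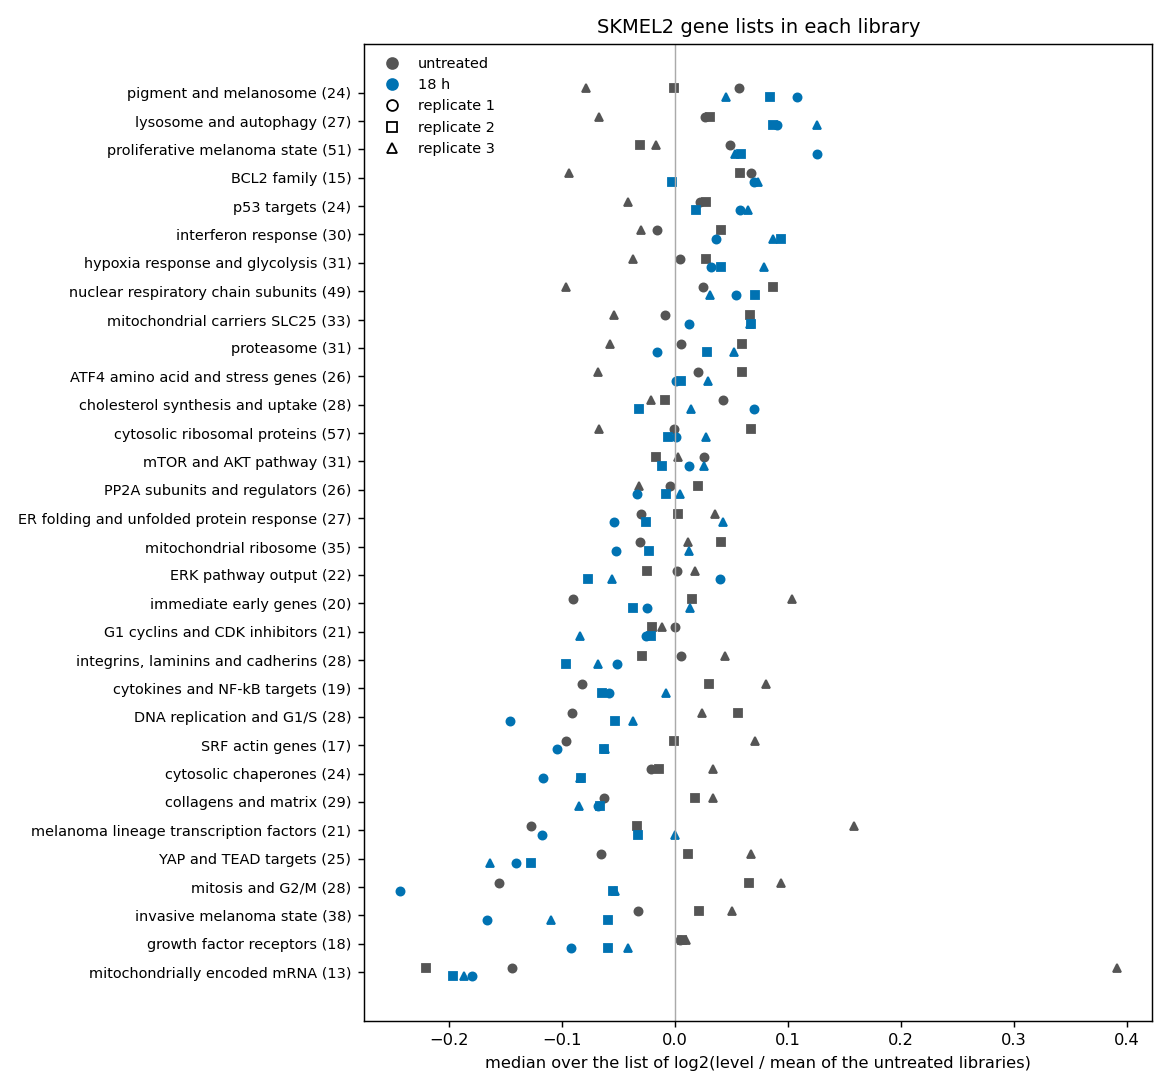
For each gene list, with its number of tested genes, the points give the median log2 ratio of its genes to their untreated mean in each of the 3 untreated and 3 18 h libraries. The lysosome, YAP and chaperone lists are among several that separate the groups. Untreated replicate 3 lies far to the right for mitochondrially encoded mRNA (0.39, the other 5 libraries from -0.22 to -0.14).

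All 13 mitochondrially encoded mRNAs were lower at 18 h (median -0.22), such as MT-ND4, a subunit of complex I, at 9784, 9163 and 14220 CPM against 9020, 8241 and 8976 CPM. Without untreated replicate 3 the median was 0.06, with 7 higher and 6 lower, and without untreated replicate 2 it was -0.35. Nuclear subunits of the respiratory chain were higher in 39 of 49 (median 0.05), in 21 of 49 without untreated replicate 3 (median -0.01) and in 43 of 49 without untreated replicate 2 (median 0.08).

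The other lists are given in turn. Hypoxia and glycolysis genes were higher in 22 of 31 (median 0.06, and 0.03 without untreated replicate 3 or 18 h replicate 3), with PKM, a glycolytic kinase, at 1823, 1963 and 1997 CPM against 2086, 2205 and 2301 CPM (0.19). Interferon response genes were higher in 22 of 30 (median 0.06), such as OAS2 (0.43) and IFI44L (0.76). Higher without overlap were 7 hypoxia and glycolysis genes and 8 interferon genes, against 7.37% of all genes. Lower without overlap was 1 gene of each list, against 7.39% of all genes. The mTOR and AKT list (median 0.00), cholesterol synthesis (0.01), ATF4 targets (0.02), the proteasome (0.02), cytosolic ribosomal proteins (0.01), ERK output (-0.03) and immediate early genes (-0.04) lay close to the median of all genes, and leaving out 1 library moved each of these 7 medians by over 1.5 times. Members with a log2 fold change below 0 were 14 of 21 for melanoma lineage transcription factors (median -0.12, and -0.02 without untreated replicate 3), 11 of 18 for growth factor receptors (-0.13, and -0.04 without untreated replicate 1), 11 of 19 for cytokines and NF-kB targets (-0.05, and 0.01 without untreated replicate 3), 14 of 21 for G1 cyclins and CDK inhibitors (-0.04, and -0.07 without untreated replicate 1) and 23 of 35 for the mitochondrial ribosome (-0.03, and -0.02 without 18 h replicate 1). Members above 0 were 15 of 24 for p53 targets (0.07, and 0.02 without untreated replicate 3), 11 of 15 for the BCL2 family (0.07, and 0.02 without untreated replicate 3) and 7 of 10 for replication-dependent histones (0.06, and 0.00 without 18 h replicate 1). In the SLC25 family of mitochondrial carriers SLC25A36 alone exceeded 0.5, and 24 of 33 were higher (median 0.04, and 0.01 without untreated replicate 3 or 0.08 without untreated replicate 2).

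Against the 6 h libraries, which share no library with the 18 h group, 0 of 16120 genes were called at 18 h by edgeR, while 418 had an unadjusted p under 0.05 (2.59%). DESeq2 called 3, AHNAK2, TGIF2-RAB5IF and the unnamed ENSG00000259171. AHNAK2 had a mean of 104 CPM at 6 h against 100.1 CPM in untreated and 140.5 CPM in 18 h cells. The readthrough transcript TGIF2-RAB5IF had 0 CPM in all 6 h libraries, 1.34, 1.34 and 0.547 CPM in untreated cells and 2.05, 1.45 and 0.512 CPM at 18 h, and it shares exons with its parent genes. ENSG00000259171 was at 0 in all 18 h libraries and at 0.273 to 1.39 CPM in untreated ones.

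The 6 h and the 18 h comparison have the untreated libraries in common, so their values are only set side by side. PPP2R3B had log2 fold changes of 4.38 at 6 h and 4.52 at 18 h, C21orf91 1.13 and 1.29, SLC25A36 0.56 and 0.60, and CCN2 -0.48 and -0.53. AHNAK2 had 0.05 and 0.49, ATP6V0D2 0.01 and 0.55, TFPI2 -0.14 and -0.32, and PRNP -0.04 and -0.20. For the chaperone list the median was -0.03 at 6 h and -0.10 at 18 h, and for YAP and TEAD targets -0.15 and -0.13.

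SKMEL30 shares no library with SKMEL2. There, 44 of 15026 genes were called at 18 h (0.293%). Of the 16 genes DESeq2 called in SKMEL2, 15 were tested in SKMEL30 and 12 of them had the same sign, while of all genes tested in both lines 49.7% did. For genes with an unadjusted p under 0.05 in SKMEL2, the share was 62.3% of 302 higher and 57.9% of 363 lower genes. Among the 15 genes, those called by edgeR in SKMEL30 included PPP2R3B (4.88), C21orf91 (1.15), SLC25A36 (0.51) and SIRPA (0.20, adjusted p = 0.00939). ANXA1, TNIK and HSPA1A had the opposite sign. Of the 12 genes with the smallest p in the upward direction in SKMEL2, 9 were tested in SKMEL30 and 8 were higher there, 3 of them called. Of the 12 in the downward direction, 10 were tested in SKMEL30 and 5 were lower there, 0 of them called. Among these 10 genes, 1 was called with the opposite sign in SKMEL30.

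The difference in response between the lines, tested as an interaction, was called for 1 of 17133 genes by edgeR (0.00584%), LIF, while 884 had an unadjusted p under 0.05 (5.16%). LIF was at 13.7, 16.1 and 15.5 CPM in untreated and 11.8, 11.4 and 11.3 CPM in 18 h SKMEL2 cells. ANXA1 was the other gene that DESeq2 called (edgeR adjusted p = 0.0892). For the lists, the median log2 fold change in SKMEL2 and SKMEL30 was 0.10 and -0.01 for lysosomal genes, 0.10 and -0.01 for pigment genes, -0.10 and 0.01 for chaperones, -0.13 and -0.11 for YAP and TEAD targets, and -0.07 and -0.10 for DNA replication. Among YAP and TEAD targets DLC1 (-0.25) and MYOF (-0.26) fell in SKMEL30 by edgeR.

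**Figure D4:**
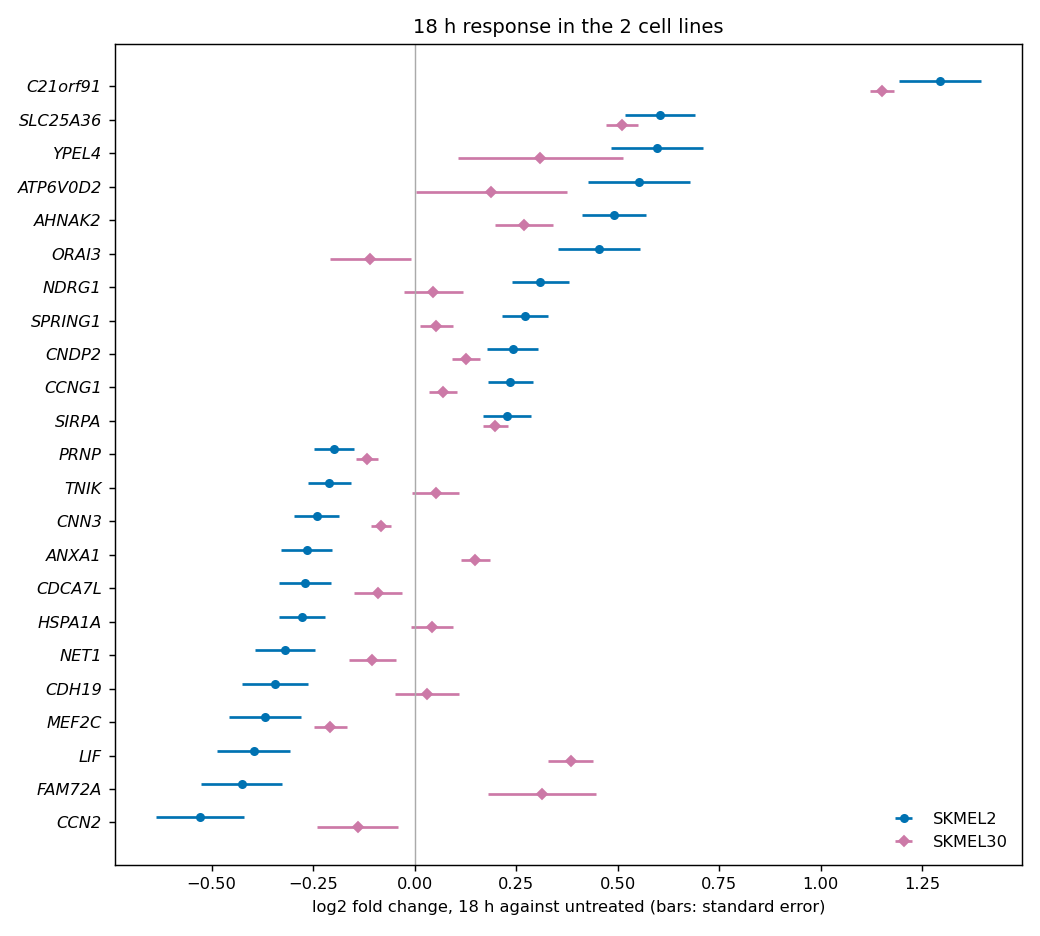
Log2 fold change at 18 h, with its standard error as a bar, in SKMEL2 (circles) and SKMEL30 (diamonds) for genes named in the text and tested in both lines, PPP2R3B left out for scale. C21orf91 and SLC25A36 lie close together in the 2 lines, whereas LIF lies at -0.40 in SKMEL2 and 0.38 in SKMEL30.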

How the data were processed

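RNA of SKMEL2 and SKMEL30 cells was sequenced by the authors from poly(A) libraries. Reads were trimmed with Cutadapt, aligned with STAR to the Ensembl transcriptome on GRCh38, lanes merged with SAMtools 1.8, and counts per gene estimated with RSEM 1.3.0 (tools also named in the submitters' processing notes, whose versions of Cutadapt and STAR differ from those of the study's text). The deposited values are expected counts for 58051 genes, not scaled, of which 12.3% are not whole because RSEM divides reads among genes. They were rounded. Columns were matched to samples by label, and 0 were left unmatched. Symbols came from the reference tables for 40895 genes, 14676 of those tested.

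In R 4.3.3 and edgeR 4.0.16, genes were filtered with filterByExpr and scaled by TMM (factors 0.978 to 1.02). The 9 SKMEL2 libraries were fitted together by the quasi-likelihood method, and the contrasts of 18 h with untreated and with 6 h tested, with Benjamini-Hochberg adjustment at 0.05. The response of the lines was compared as an interaction over all 18 libraries. The biological coefficient of variation was 8.36%. Standard errors are the log2 fold change divided by the square root of F, and intervals are 95%. DESeq2 1.42.0 and limma 3.58.1 (voom) were alternatives. An exact permutation test of 3 against 3 cannot go below p = 0.1, so none was used. On simulated data for this comparison (15884 genes, 50 changed at each size), edgeR recovered 12% of genes at a log2 change of 0.25, 74% at 0.5, 88% at 1 and 100% at 2, with 4 false calls. The changed genes were drawn above 1 CPM, and all genes of like level had the same spread. There edgeR called 141 genes against 2 in the data, so the unadjusted p needed for a call was less strict. These shares therefore do not give the recovery in the data. Counting error alone leaves up to 3 counts open where the count is 0.

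Named genes are PPP2R3B, C21orf91, those called, the 12 with a symbol and the smallest p in each direction, the 4 smallest p of each list, genes the study names, the 3 smallest p of the other contrasts and the 10 DESeq2 calls with the largest change. The other DESeq2 calls were named after their values were seen, and 1 of the DESeq2 calls is not reported here. The 39 lists (1021 of 1026 entries matched) and members were chosen with earlier results of these data known.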

Additional observations from a re-analysis of the deposited data

Results flagged for a closer look

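LIF, a cytokine, was called for a difference in its 18 h response between the lines. Its log2 fold change was -0.40 in SKMEL2 and 0.38 in SKMEL30, a difference of -0.78 (edgeR interaction, adjusted p = 0.00495).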

How the results depend on the processing

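PPP2R3B and C21orf91 were called in every alternative fit of the 18 h comparison. Against 2 genes called, DESeq2 called 16 with 9 libraries and 36 with the 6 compared, edgeR without a filter on low counts 168 (63 higher, 105 lower), with the 6 libraries compared 9 and with all 18 libraries 7. Chosen after seeing the data were DESeq2 without independent filtering (10), DESeq2 on the genes of the edgeR filter (11) and edgeR with robust spread (4). RLE factors and limma-voom gave 2, at least 10 counts in every library 3, and leaving out 1 library 2 to 2. Between 18 h and 6 h, DESeq2 called 3 and the unfiltered fit 135, and between the lines 2 and 216. The cause was not tested.

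The correlation of deviations from the group mean between the untreated and the 18 h library of a number was 0.136, 0.026 and 0.101 for replicates 1 to 3. These values do not settle whether the replicate numbers pair the libraries. With the replicate number as a block, 7 genes were called, which were PPP2R3B, C21orf91, AHNAK2, SLC25A36, TGM5, MYOF and THBS1. The block changed neither count of calls for the other contrasts.

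Log2 fold changes that turned sign did so without 1 library, in genes that neither edgeR nor DESeq2 called at 18 h against untreated cells with the 9 libraries. Their ranges without 1 library were PDGFRA -0.65 to 0.035, KRT5 -0.90 to 0.23, KRT14 -0.60 to 0.25, TEK -0.20 to 0.71, LYZ -0.12 to 0.051, MITF -0.012 to 0.034, H2BC5 -0.040 to 0.24, KDR -0.054 to 0.18, VWF -0.19 to 0.20, TGIF2-RAB5IF -0.12 to 0.73, TP63 -0.069 to 0.021 and PTPRC -0.76 to 0.027.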
